A study of Mus musculus with 2 samples.

Results

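Nuclear respiratory factor 1 (NRF1) is a transcription factor that binds DNA as a dimer, and its best-known recognition site is a GC-rich palindrome that reads the same on both strands. It was first described at promoters of nuclear genes whose products work in mitochondria, and it also occupies promoters of many other genes that most cells use. The palindrome holds CpG dinucleotides, and methylation of CpG in this site is known to hinder NRF1 binding.

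The peaks described here were those of an NRF1 chromatin immunoprecipitation with sequencing (ChIP-seq) in mouse skeletal muscle that carried an exact copy of the NRF1 palindrome, with 0 mismatches, wholly within 100 bp of the summit, the position of highest signal. They numbered 349 of 3226 peaks, or 10.8% (95% Wilson interval 9.79 to 11.9%). The size of the list differs from the number of sites given in the study, so it may be another version of the peak calls. A further 1743 peaks had a copy with 1 mismatch at best in the same window, and 1134 had neither. The choice used the sequence alone and no measured height. The muscle came from wild-type mice, for which the study's methods describe male C57BL/6J animals and the legend on NRF1 an age of 9 weeks, and whether animals were pooled is not stated. Labels of 2 libraries both name the NRF1 antibody and wild-type skeletal muscle, but the study's reporting summary lists the library of replicate 2 as input DNA. The single deposited list names its peaks after replicate 1, so no value below has a replicate error, read depth is unknown, and no difference was tested. Intervals cover counting error over peaks, copies or genes only. The palindrome is its own reverse complement, and it reads as follows.
NRF1 palindrome: GCGCATGCGC

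The letters around the palindrome are shown first, because they let the exact core be seen in its context. The lines give the 8 promoter peaks of highest fold enrichment that had 1 exact copy and whose sequence is printed here, from the highest down. Each holds 30 bases of the plus strand of mm10 (GRCm38) after the gene name and position, with the palindrome in capitals.
Gmcl1, chr6:86733421-86733450: gctgcaggttGCGCATGCGCaggctgctgg
Ints2, chr11:86257602-86257631: gggccgctctGCGCATGCGCaggcccgccc
Thap12, chr7:98702917-98702946: ggagactacaGCGCATGCGCaattccttcc
Dync1li1, chr9:114688643-114688672: gaatcaggccGCGCATGCGCgacccggtct
Vapb, chr2:173737466-173737495: tgaacaccctGCGCATGCGCagtctccctt
Pagr1a, chr7:127017383-127017412: gagaagacttGCGCATGCGCaatttggccc
Zfp213, chr17:23564252-23564281: aaaccagctgGCGCATGCGCggggataagc
Mrpl9, chr3:94443298-94443327: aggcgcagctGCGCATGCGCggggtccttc
Over all 349 peaks, with both sides of the nearest copy read outward on their own strand (698 flanks), the base next to the palindrome was T in 37.1%, C in 28.8%, G in 24.2% and A in 9.89%. One base further out the 4 bases took 15.5% (A), 34.1% (C), 34.7% (G) and 15.8% (T), so T was the leading base only in the adjoining position of the 2.

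Peaks with the exact palindrome had a higher median fold enrichment than the other peaks. Fold enrichment compares the summit's signal with the control background, as the authors' peak caller computed it. Its median was 14.3 over the 349 peaks (interval of the median 13.2 to 14.9, quartiles 9.82 and 18.3), 11.9 (11.5 to 12.3) over the 1743 peaks with 1 mismatch and 8.26 (8.0 to 8.62) over the 1134 peaks without a match. On the log2 scale the median of the palindrome peaks lay 0.26 above that of the 1-mismatch peaks and 0.79 above that of the peaks without a match. The quartile ranges of the palindrome and 1-mismatch peaks overlapped widely (8.58 to 16.8 in the latter). The median −log10 q, the caller's measure of confidence, was 35, 27.8 and 14.6 in the same order, and the median peak width was 350, 313 and 239 bp. All 349 passed a q-value of 0.01, and 345 of them (98.9%) had a fold enrichment of at least 5, against 94.1% of all peaks. GC content within 100 bp of the summit was alike, with medians of 65.2%, 66.2% and 66.2%.

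Ranked by fold enrichment and divided into 10 equal parts, the list held the palindrome in 65 of the 323 highest peaks (20.1%, 16.1 to 24.8%) and in 7 of the 323 lowest (2.17%, 1.05 to 4.41%). In between, the share was 14.0%, 17.3% and 14.0% in the next 3 parts and lay between 5.59% and 10.6% in the other 5. Even among the highest peaks most had no exact copy. Of the 100 peaks of highest fold enrichment, 22 carried it.

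**Figure D1:**
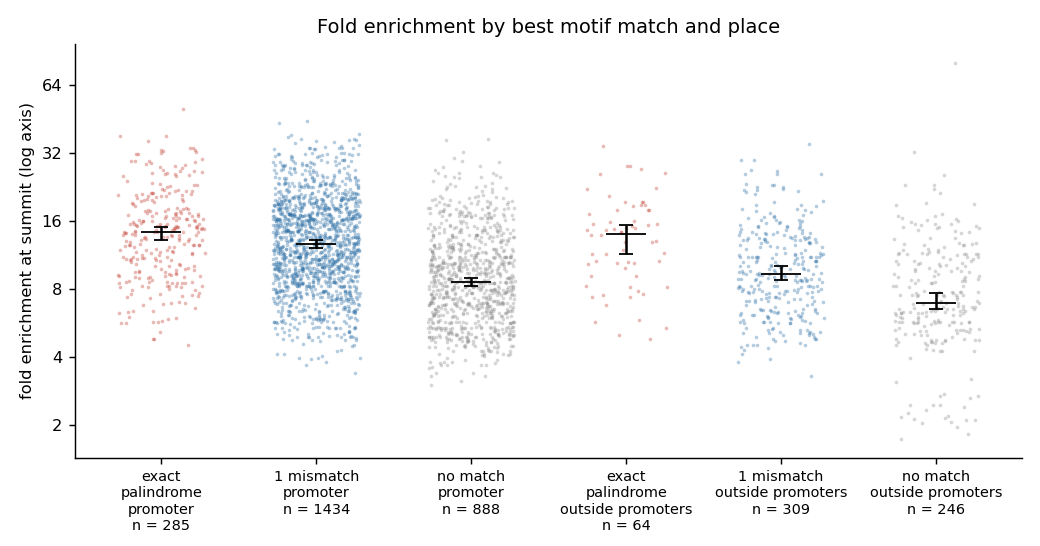
Fold enrichment at the summit (log axis) of each peak, by best motif match within 100 bp of the summit and by place; points are peaks, bars are medians with 95% order-statistic intervals. The median of palindrome peaks was 14.3 in promoters and 14.1 outside, whereas that of 1-mismatch peaks was 12.7 and 9.30.

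Outside promoters the medians of the classes lay further apart than in promoters, a difference that was not tested. A promoter was taken as 1000 bp before to 100 bp after a transcription start of a known RefSeq transcript, and 285 of the 349 palindrome peaks had their summit in one (81.7%, 77.3 to 85.4%), against 80.8% of all peaks, 82.3% of 1-mismatch peaks and 78.3% of peaks without a match. In promoters the palindrome peaks had a median fold enrichment of 14.3 and the 1-mismatch peaks 12.7, a log2 difference of 0.17. Outside promoters the 64 palindrome peaks kept a median of 14.1 (11.4 to 15.4), whereas 309 peaks with 1 mismatch had 9.30 (8.77 to 10.1) and 246 without a match 6.98 (6.56 to 7.70). The log2 difference between exact and 1-mismatch peaks was thus 0.60 outside promoters. At more than 10000 bp from any start, 24 palindrome peaks had a median of 14.1 (9.14 to 15.9), beside 7.80 for all 218 peaks at that distance.

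Palindrome peaks with more copies of the motif had higher medians. Of the 349 peaks, 338 held 1 exact copy and 11 held 2. Counting copies with at most 1 mismatch as well, 94 of the 349 (26.9%, 22.5 to 31.8%) had more than 1 copy in the window. The same held for 283 of the 1743 peaks with 1 mismatch at best (16.2%). The median fold enrichment was 12.5 in the 255 palindrome peaks with a lone copy, 17.8 (16.1 to 19.9) in the 80 with 2 copies and 24.6 (17.9 to 32.9) in the 14 with 3 or more. Peaks that had no exact copy had medians of 11.1, 16.4 and 17.1 at 1, 2 and 3 or more copies. At a single copy the exact palindrome was 0.17 higher on the log2 scale than a copy with 1 mismatch, and a second copy went with 0.51 more. Peaks with more copies were also wider, with a median of 318 bp at 1 copy, 456.5 bp at 2 and 569 bp at 3 or more.

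**Figure D2:**
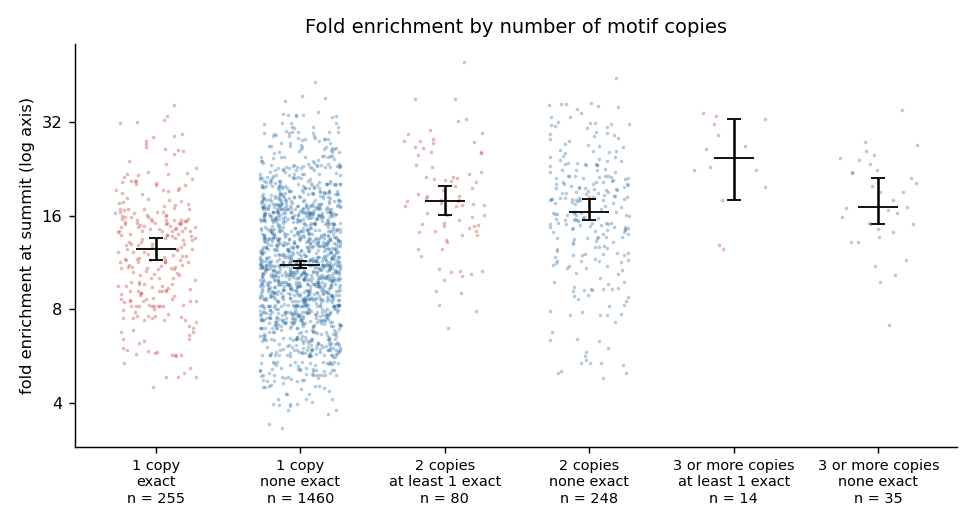
Fold enrichment at the summit (log axis) by the number of motif copies with at most 1 mismatch within 100 bp of the summit, for peaks with and without an exact copy; points are peaks and bars are medians with 95% order-statistic intervals. Among palindrome peaks the median was 12.5, 17.8 and 24.6 at 1, 2 and 3 or more copies, and 14 peaks made up the last group.

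Peaks with 2 exact copies ranged from 10.7 to 33.6 in fold enrichment, and their spacing, from the start of one copy to the start of the next, ranged from 6 to 156 bp. The sequences show the arrangements, which run from overlapping copies to copies several helical turns apart.
Rnf113a2, chr12:84417177-84417206: gctgGCGCATGCGCATGCGCcgtgacggtc
Rbfox2, chr15:77163197-77163228: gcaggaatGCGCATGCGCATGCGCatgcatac
Cog6, chr3:53017239-53017284: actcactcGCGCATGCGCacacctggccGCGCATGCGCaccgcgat
Polh and Xpo5, chr17:46202718-46202766: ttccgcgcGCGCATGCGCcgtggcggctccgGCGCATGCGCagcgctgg
Cep57l1 and Sesn1, chr10:41809900-41809948: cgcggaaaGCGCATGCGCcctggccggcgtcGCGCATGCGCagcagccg
Nup50, chr15:84923253-84923340: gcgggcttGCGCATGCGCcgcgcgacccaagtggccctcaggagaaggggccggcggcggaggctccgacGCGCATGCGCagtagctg
Srl, chr16:4475208-4475305: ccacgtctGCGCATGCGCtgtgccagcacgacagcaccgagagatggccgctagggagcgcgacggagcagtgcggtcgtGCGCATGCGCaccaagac
In Rnf113a2, which codes for a RING finger protein, and in an intron of Rbfox2, which codes for a splicing regulator, the copies started 6 bp apart and shared 4 bases, and each peak had a fold enrichment of 10.7. These were the lowest of the 11. The promoter of Nup50, a nuclear pore component, and that of Snrnp70, the U1 snRNP protein that binds the 5′ splice site, both had copies 62 bp apart plus 1 copy with a mismatch, and had the highest values, 33.6 and 31.5.

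The promoter between Polh, a translesion DNA polymerase, and Xpo5, an exporter of microRNA precursors, had copies 23 bp apart and a fold enrichment of 19.9. The same spacing occurred between Cep57l1 and Sesn1, a stress-induced sestrin, with a value of 15.0. Cog6, a subunit of a Golgi tethering complex, had copies 20 bp apart and a value of 17.3. A peak whose nearest start, 47815 bp away, is that of Srl, the gene of the sarcoplasmic reticulum protein sarcalumenin, had copies 72 bp apart and a value of 19.3. The remaining peaks with 2 copies were at Zfp652os (156 bp apart, 17.2), Maged2 (152 bp, 12.9) and Egf (58 bp, 12.5). No order by spacing was apparent in these 11 values.

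Within the 100 bp that the choice allowed, the palindrome lay mostly near the summit. The centre of the nearest copy was a median of 15.5 bp from it (quartiles 5.5 and 28.5 bp), and in 245 of the 349 peaks (70.2%, 65.2 to 74.8%) it was within 25 bp. In peaks with 1 mismatch at best the median distance of the nearest copy was 12.5 bp (6.5 and 25.5 bp), where any of more copies could be the nearest. Along the direction of the gene the copy in promoter peaks was upstream of the summit in 138 and downstream in 147. The median fold enrichment was 13.5 in the 142 peaks with the copy within 10 bp, 12.7 in those beyond 10 and up to 25 bp, 15.9 in the 67 up to 50 bp and 15.6 in the 37 beyond 50 bp. The intervals of the first and last of these medians, 12.4 to 14.9 and 12.9 to 20.3, overlapped, and the peak of 49.9 had its copy 7.5 bp from the summit.

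At the 100 bp limit the values were mixed. Of the peaks just inside it, 9 had the outer base of the nearest copy more than 80 bp from the summit, and their median fold enrichment was 20.4, with the highest value, 29.5, at 2310057M21Rik. Just outside, 10 peaks had it at up to 131 bp, with a median of 12.6 and fold enrichments from 4.10 at Commd1 to 25.9 at 4930526I15Rik, both named after their values were seen.

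**Figure D3:**
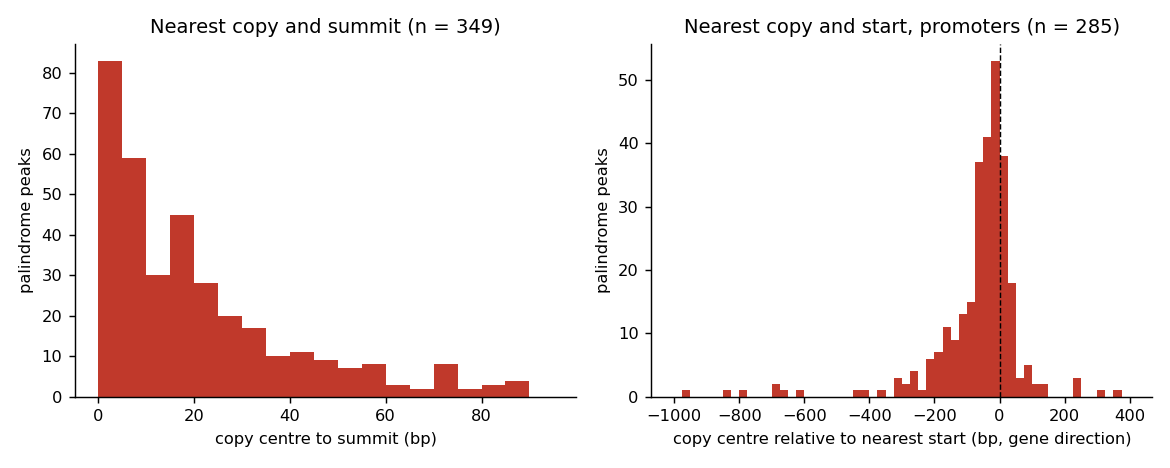
Left, distance in bp from the centre of the nearest exact copy to the summit in 349 palindrome peaks; right, position of that copy in bp relative to the nearest start, negative being upstream along the gene, in the 285 with the summit in a promoter. The median distance to the summit was 15.5 bp and the median position relative to the start was 33.5 bp upstream.

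In the 285 promoter peaks the palindrome itself was centred a median of 33.5 bp upstream of the nearest start, with quartiles 89.5 bp upstream and 0.5 bp downstream. The 50 bp just upstream of the start held 94 of the 285 (33.0%), the 50 bp before those held 52, and the first 50 bp of the transcript held 56. Only 8 lay from 50 to 100 bp downstream, and 7 lay more than 500 bp upstream. The median fold enrichment was 14.6 (13.4 to 15.6) for the 150 palindrome peaks whose summit was 0 to 100 bp upstream of a start. For the 62 in the first 100 bp of the transcript it was 12.1 (10.7 to 14.4), and these intervals overlapped. Over all peaks the medians were 11.8 (11.4 to 12.3) and 10.5 (10.0 to 11.1) in the same order. Summits of all promoter peaks were a median of 46 bp upstream, and those of palindrome peaks 36 bp.

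The promoter peaks of highest fold enrichment belonged to genes of varied function. The highest was 49.9, at the start shared by Txnl4a, a component of the U5 snRNP, and Gm16286, with the summit 37 bp upstream. Next came Map3k2, a MAP kinase kinase kinase, at 38.1, Gmcl1, a cullin ligase adaptor, at 38.0 and Rab18, a small GTPase of the endoplasmic reticulum and lipid droplets, at 36.3. Ints2, a subunit of the Integrator complex, had 33.6, Nup50 had 33.6, and Thap12, which codes for a THAP zinc finger protein, had 32.9. Dync1li1, a dynein light intermediate chain, had 32.8, and Vapb, an endoplasmic reticulum contact-site protein, had 32.5. Pagr1a, which codes for a partner of a histone methyltransferase complex, had 32.2, and the zinc finger gene Zfp213 had 32.

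Of the next in order, Mrpl9, a protein of the mitochondrial ribosome, had a fold enrichment of 31.8, Snrnp70 31.5, and Acad12, of the acyl-CoA dehydrogenase family, 30.2. The values were 29.5 for 2310057M21Rik, 29.5 for Ndufa13, 29.4 for Trim32, 29.1 for the peptidase gene Thop1, 29.0 for Smg9, a factor of nonsense-mediated decay, and 28.6 for Ubn2, a ubinuclein of the histone chaperone machinery. The copies were not all near the start: that of Ndufa13, a complex I subunit, was 777.5 bp upstream of its start. Trim32 codes for a ubiquitin ligase whose mutation causes a limb-girdle muscular dystrophy, and its copy was centred 17.5 bp downstream of the start. The lowest 5 of the 349 were Bsn, coding for a presynaptic protein, at 4.51, Mtg1, a mitochondrial GTPase, Zfp180 and Bphl, each at 4.84, and Ttc7b at 5.01. An exact copy thus stood in peaks from 4.51 to 49.9.

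The 64 palindrome peaks outside promoters comprised 27 in introns, 19 between genes, 11 in non-coding exons or untranslated regions and 7 in coding exons. Their median fold enrichments were 13.8, 14.4, 12.9 and 16. The leading peak of each kind is shown by its 30 bases in mm10, plus strand, palindrome in capitals, for comparison with the promoter sequences above.
Alkbh5, non-coding part of an exon, chr11:60537909-60537938: ggcctcgtctGCGCATGCGCcggcctctcc
Gdf15, coding exon, chr8:70629868-70629897: tctcttgggtGCGCATGCGCgcttcggcgc
Fancl, intron, chr11:26387424-26387453: ccgatactctGCGCATGCGCggtcgctagg
Kcnn1, upstream of the gene, chr8:70865739-70865768: gcagtggctgGCGCATGCGCgcgggttaac
Alkbh5 codes for an RNA demethylase, and its peak had a fold enrichment of 34.2 with the summit 289 bp downstream of the start. In non-coding exons or untranslated regions it was followed by P4hb, a protein disulfide isomerase (27.3, 274 bp downstream), and Htd2, an enzyme of mitochondrial fatty acid synthesis (19.4, 156 bp). Of the 35 palindrome peaks with the summit more than 100 and up to 1000 bp downstream of the nearest start, 7 were in the promoter of another start and the others are among the 64.

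Others were well inside or away from genes. Gdf15, a cytokine induced by cellular and mitochondrial stress, had a value of 27.9 in a coding exon 2209 bp from its start. Angptl6, an angiopoietin-like factor, had 20.7 in a coding exon, and a coding exon of the calcium channel gene Cacna1a, where the nearest start is that of Ier2, had 17.3. In introns the leading peaks were those of Fancl, a ubiquitin ligase of the Fanconi anemia pathway (26.0), Nr1d2, the nuclear receptor REV-ERBβ (25.7), and Ctbp1, a transcriptional corepressor (22.5). Between genes they were 2513 bp upstream of Kcnn1, a calcium-activated potassium channel (27.9), 34072 bp upstream of Foxk1, a forkhead factor (22.2), and 11354 bp past the start of Rela, an NF-κB subunit (19.4). The nearest start names a peak here and says nothing of which gene it serves.

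The 285 promoter peaks fell in promoters of 316 protein-coding genes, 1.50% of 21000, while peaks of any kind fell in promoters of 2808 (13.4%). A single coding gene was assigned to 248 of the peaks and 2 or more to 34, and a shared peak counts for each of its genes. For 3 the promoter was that of non-coding genes alone. The median fold enrichment was 13.9 with 1 coding gene and 14.9 (11.7 to 19.9) with 2 or more. Genes were then counted by 21 lists fixed by gene symbol, 54 of the 316 genes being in at least 1 of them. Each share is to be read against 1.50%. All lists but that of muscle genes also exceeded the 13.4% for any peak. A share above 1.50% thus does not by itself set the palindrome apart from other peaks. Of all protein-coding genes with any peak, 11.3% had a palindrome peak. That share was 21.7% in the respiratory chain list, 12.3% in cell division, 11.8% in autophagy and 8% in splicing. These differences were not tested.

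Among genes of the respiratory chain and its assembly, 10 of 119 had a palindrome peak in the promoter (8.40%, 4.63 to 14.8%), and 46 had a peak of any kind. They included parts of complex I (Ndufa11 with a fold enrichment of 15.0, and Ndufa13), its assembly factors Ndufaf4 (7.91) and Ndufaf5 (7.40), the complex III core subunit Uqcrc1 (23.0), Cox6a1 (12.5) and the assembly factor Cox18 (9.02) of cytochrome c oxidase, and the ATP synthase genes Atp5g2 (11.5), Atp5j (8.02) and Atp5k (7.97). The median of the 10 was 10.3, below the 14.3 of all palindrome peaks. Mitochondrial ribosomal proteins had 3 of 78 (3.85%), Mrpl9, Mrpl32 (22.6) and Mrpl39 (7.29). Of 36 genes of mitochondrial protein import only Tomm7, of the outer membrane translocase, had one, at 21.8. None of 37 aminoacyl-tRNA synthetases had one (upper Wilson bound 9.41%), although 13 had a peak of another kind.

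Lists of protein breakdown rested on 1 to 3 genes each. The proteasome list had 2 of 51 (3.92%, 1.08 to 13.2%), Psma2, which shares a peak of 22.6 with Mrpl32, and the assembly chaperone Psmg1 (14.4). Ubiquitin genes and the Uba and Ube enzymes had 2 of 53 (3.77%), Ube4a (19.6) and Ube2k (13.2). F-box and cullin genes had 3 of 88 (3.41%), Fbxo42 (17.7), Fbxo9 (11.7) and the iron sensor Fbxl5 (6.44). Rnf and Trim genes had 3 of 151 (1.99%), Trim32, Rnf113a2 and Trim39 (10.4), and deubiquitinases 1 of 75 (1.33%), Usp5 (14.2). In autophagy, 2 of 42 (4.76%) had one, Bnip2 (22.9) and Atg7, an enzyme needed to build autophagosomes (12.2). Of the 23 catabolic loci that the study displays, which it chose on these samples and which are therefore not independent, Bnip2, Fbxo42 and Fbxo9 had one (13.0%, 4.54 to 32.1%). The sequences of Uqcrc1, Bnip2 and Fbxo42 are given as examples from the respiratory chain, autophagy, and F-box and cullin lists. They are in mm10 and on the plus strand with the palindrome in capitals.
Uqcrc1, chr9:108936668-108936697: actccgctctGCGCATGCGCagcgcggctc
Bnip2, chr9:69989374-69989403: gctcacggctGCGCATGCGCagagaggaag
Fbxo42, chr4:141147899-141147928: ccccgcctcaGCGCATGCGCactgcgcgct

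For gene expression and growth, the chromatin enzyme list had 5 of 87 (5.75%, 2.48 to 12.8%). They were the histone methyltransferase gene Kmt2c (16.1), the demethylase gene Kdm5c (12.5), the maintenance DNA methyltransferase gene Dnmt1 (10.6) and the deacylase genes Sirt5 (9.04) and Sirt6 (5.69). Cell division had 7 of 214 (3.27%), from Cdc7, a kinase that fires replication origins (26.9), and Cenpo (24.0) through Ccni (18.3), Cep57l1, Cdk16 (13.9) and Cenpi (13.4) to Haus4 (6.97). Replication and repair had 4 of 118, Polh, Lig4 (11.7), Ercc6 (8.27) and Mcm4 (7.05). The peak of Lig4 was also in the promoter of Abhd13. That of Mcm4 was also in the promoter of Prkdc, with the summit 449 bp upstream of the Mcm4 start. The splicing list, which includes Dhx helicase genes by symbol whatever their role, had 4 of 135. These were Dhx34 (21.3), Dhx37 (12), Srsf11 (9.44) and Hnrnpl (5.20). Translation factors had 2 of 74, Eif3k (25.9) and Eif5b (8.62), and the cytosolic ribosome 2 of 100, Rpl10a (9.82) and Rpl7 (5.67).

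Vesicle traffic had 2 of 207, Rab18 and Stx12 (19.0), and chaperones 1 of 95, Cct5 (11.1). RNA polymerase and Mediator genes had none of 109 (upper bound 3.40%), although 36 had a peak of any kind in the promoter. Of 99 muscle genes, sarcomere and excitation-contraction genes among them, none had a palindrome peak, which allows a share of up to 3.74% (upper Wilson bound), and 6 had a peak of any kind. Shares in lists of this size rest on few genes each.

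**Figure D4:**
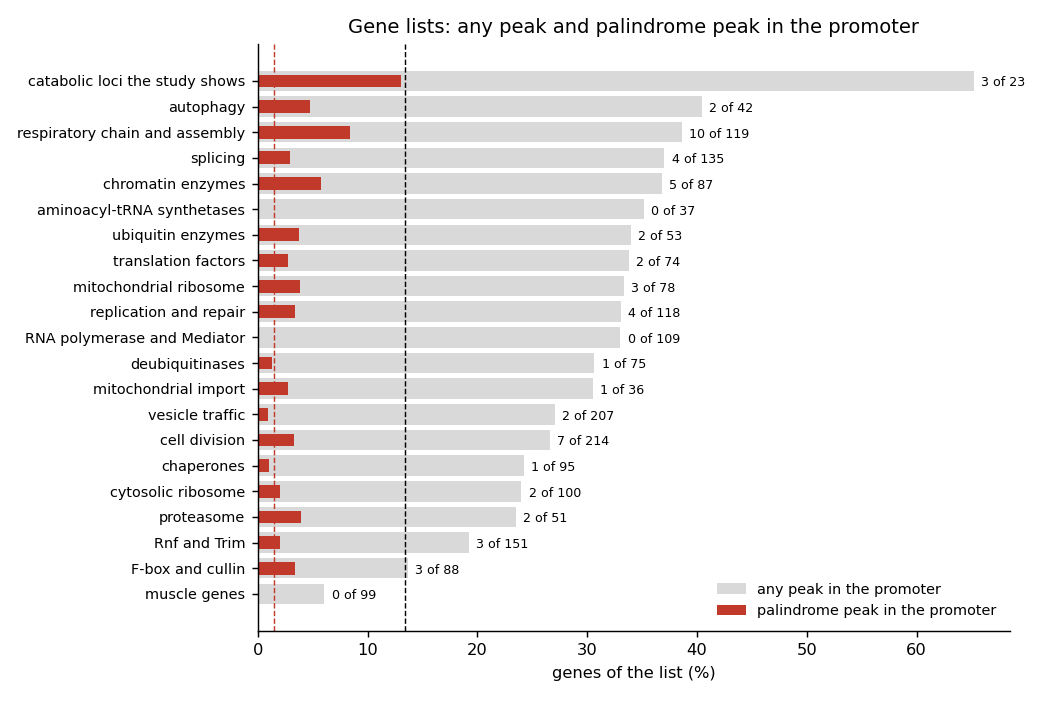
Percent of the genes of each list with any peak in the promoter (grey) and with a palindrome peak (red), labelled with the number of palindrome genes of the number of genes; dashed lines mark 13.4% (black) and 1.50% (red) over all 21000 protein-coding genes. Respiratory chain genes reached 8.40% for palindrome peaks and muscle genes 0%.

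Read from the genome rather than from the peaks, the exact palindrome occurred 1655 times on the chromosomes that hold peaks, and 382 of these copies (23.1%, 21.1 to 25.2%) lay wholly in a peak. Of 361 copies in promoters 306 were in a peak (84.8%, 80.7 to 88.1%), and of 1294 copies elsewhere 76 were (5.87%, 4.72 to 7.29%). For comparison, an exact copy was found in 265 of 26208 windows of the same length around starts of protein-coding genes (1.01%). Of 499 copies in soft-masked repeats only 6 were in a peak (1.20%), against 32.5% of the 1156 others. The part of read mapping in this difference was not tested.

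Copies with more CpG around them were more often in a peak. The CpG ratio is the number of CpG over that given by the C and G content, here within 100 bp of the copy. Among promoter copies 1 of 7 was in a peak at a ratio under 0.4, 8 of 22 at 0.4 to 0.6, 61 of 77 at 0.6 to 0.8, 111 of 122 at 0.8 to 1 and 125 of 133 at 1 or more (94.0%, 88.6 to 96.9%). Outside promoters the share went from 3 of 335 (0.896%) at the lowest ratio to 19 of 85 (22.4%, 14.8 to 32.3%) at the highest. At a ratio of 1 or more, then, copies outside promoters were still in a peak less often, and their GC content was lower, with a median of 49.8% against 69.2%. DNA methylation was not measured, and its part in these shares was not tested.

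**Figure D5:**
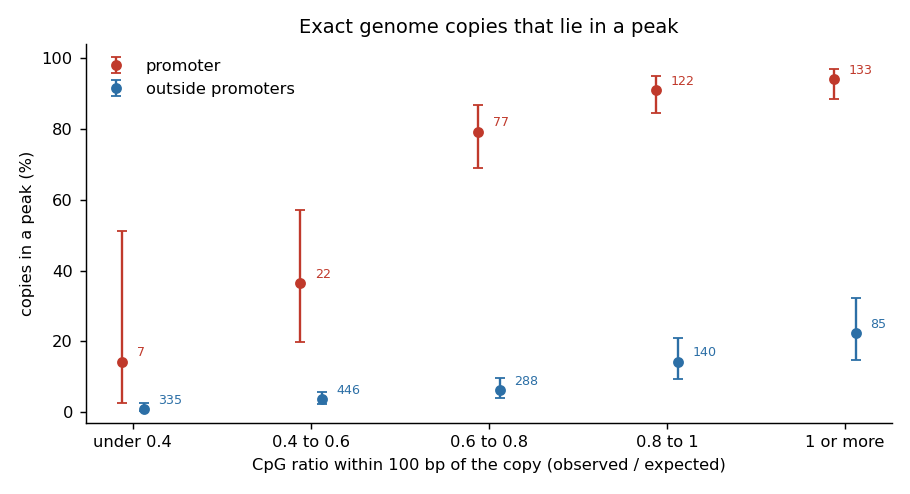
Percent of exact genome copies of the palindrome that lay wholly in a peak, by the CpG ratio within 100 bp of the copy, in promoters (red) and outside (blue); bars are 95% Wilson intervals and the numbers beside points are copies. Shares in promoters went from 1 of 7 copies to 125 of 133, and outside from 3 of 335 to 19 of 85.

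The adjoining base did not order the copies in the same way. Promoter copies with a pyrimidine before them and a purine after them, that is, a pyrimidine on both sides when each is read outward, were in a peak in 123 of 148 cases (83.1%, 76.3 to 88.3%). With a pyrimidine on 1 side it was 156 of 183 (85.2%), and with none 27 of 30 (90.0%, 74.4 to 96.5%). Fold enrichment in palindrome peaks had medians of 14.5 (13.2 to 16.1), 14.2 and 12.5 (8.62 to 15.0) for both sides, 1 side and none, and these intervals overlap.

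The palindrome was compared with each of its 15 forms with a single mismatch, strands joined, to see how far exactness went with being in a peak. A substitution is written with the base of the palindrome, its position counted from 1 at the 5′ end, and the base found. The 8 forms below span the positions. The form of lowest share, C4T, is not among them and had 0 of 2 promoter copies in a peak.
A5C: GCGCCTGCGC
A5G: GCGCGTGCGC
G1A: ACGCATGCGC
A5T: GCGCTTGCGC
G3A: GCACATGCGC
C2T: GTGCATGCGC
G3C: GCCCATGCGC
C4G: GCGGATGCGC
The form A5C was in a peak at 745 of 896 promoter copies (83.1%, 80.6 to 85.5%), whose interval overlaps that of the exact palindrome. Below it came A5G with 76.1% (506 of 665), G1A with 75.1% (211 of 281) and A5T with 71.6% (154 of 215). All 6 forms changed at position 1 or 5 had shares of 60.0% or more. The 9 changed at positions 2, 3 and 4 had at most 60.4%, the value of C2A (125 of 207), among them 56.6% for G3A (77 of 136), 26.1% for C2T (18 of 69), 17.9% for G3C (5 of 28) and 14.8% for C4G (4 of 27). Among promoter copies with a CpG ratio of at least 0.8, the exact form was in a peak at 236 of 255 (92.5%, 88.7 to 95.2%) and A5C at 590 of 670 (88.1%). G1A had 90.9% (140 of 154) and A5T 84.6% (115 of 136, 77.5 to 89.7%). A5G had 81.0% (451 of 557, 77.5 to 84.0%), an interval below that of the exact form. The order by position was therefore not kept throughout. With this limit G3A reached 90.9% (50 of 55, 80.4 to 96.1%) and C2A 84.0% (84 of 100, 75.6 to 89.9%), intervals that overlap that of the exact form. Shares rose but stayed below that interval for C2G, with 73.0% (27 of 37, 57.0 to 84.6%), and G3T, with 70.0% (14 of 20, 48.1 to 85.5%). The same held for C2T, with 68.8% (11 of 16, 44.4 to 85.8%). Lower still were G3C with 30.8% (4 of 13) and C4G with 16.7% (3 of 18). Some of these copies share a peak with another copy, exact or not.

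Outside promoters the order of the forms depended on whether repeats were counted. Over all copies there A5C reached 14.2% (145 of 1021, 12.2 to 16.5%) and A5T 10.7% (36 of 336), against 5.87% for the exact form and 3.15% for A5G. Without copies in soft-masked repeats the shares were 22.7% for A5G (96 of 422, 19.0 to 27.0%), 17.3% for A5C (142 of 823), 14.9% for A5T (36 of 242) and 9.0% for the exact form (72 of 800, 7.21 to 11.2%). The median CpG ratio around copies outside promoters, those in repeats included, was 0.54 for the exact form and 0.60 for A5C. It was 0.59 for A5T and 0.77 for A5G. Height differed less. In peaks with a lone copy the median fold enrichment was 12.5 (11.5 to 13.6) for the exact form in 255 peaks, 11.5 (10.9 to 12.2) for A5C in 527, 10.8 (10.1 to 11.7) for A5G in 359 and 11.5 (10.9 to 12.8) for G1A in 165.

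The 55 promoter copies that were not in a peak are the converse case, an exact palindrome by a start with no called binding. Their median CpG ratio was 0.71, against 0.95 for the 306 in a peak, and 19 of the 55 had a ratio of at least 0.8. Of the 55, 33 lay within 100 bp of a start, as did 223 of the 306. The copies closest to a start belonged to Stk31, a testis-expressed kinase (4 bp upstream), Gm19345 (8 bp upstream), Rpl37a (11 bp downstream), the neuronal aspartate acetyltransferase Nat8l (11 bp upstream), the GABA receptor subunit Gabrb1 (12 bp upstream) and the meiotic helicase Hfm1 (13 bp upstream). Others nearest a start were those of Cdkl4, Halr1, Kctd1 and Spo11, the enzyme that makes meiotic DNA breaks (18 bp upstream).

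The sequences of Stk31, Hfm1 and Spo11 show that the core was intact at these starts. They are given in mm10 and on the plus strand, with the palindrome in capitals.
Stk31, chr6:49395521-49395550: gcagcacctcGCGCATGCGCaggcgcagtg
Hfm1, chr5:106925889-106925918: ctgaggcgacGCGCATGCGCgccttccccg
Spo11, chr2:172979810-172979839: gtggtgcagtGCGCATGCGCgtggctagag
In Stk31 the nearest summit was 857864 bp away and the CpG ratio was 0.77. Hfm1 had a ratio of 1.0 and Spo11 one of 0.86, so low CpG density was not shared by all copies without a peak. In 4 of the 55 a summit lay within 500 bp, among them Commd1, with a summit 100.5 bp away, and Bsn, with one 110.5 bp away, picked here after these values were seen.

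Other short promoter motifs were searched on both strands in the same 100 bp on each side of the summit. GGGCGG, the GC box, was in 58.2% of palindrome peaks (52.9 to 63.2%), 60.1% of 1-mismatch peaks and 63.1% of peaks without a match, and in 42.8% of windows of the same length around starts of protein-coding genes. CCAAT was in 18.9%, 21.9% and 23.5%, against 27.1% of start windows. CCGGAAG, the core of ETS factor sites, was in 10.6%, 13.5% and 14.8%, against 9.50%, and TGACG, a core of cAMP response elements, in 21.2%, 27.0% and 28.6%, against 19.4%. CACGTG, the E-box, was in 5.73%, 9.70% and 7.32%, against 5.57%, and TATAAA in 2.01%, 2.18% and 1.85%, against 7.25%. Palindrome peaks held all of these motifs except TATAAA a little less often than peaks without a match, and these differences were not tested. A match here is a description of letters and not of binding.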

How the data were processed

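NRF1 ChIP-seq was performed on wild-type mouse skeletal muscle, and 1 peak list on mm10 was deposited. According to the methods, the authors mapped single-end reads with Bowtie, kept those with a unique match, removed blacklisted regions (the blacklist named is a human one) and called peaks with MACS2 against input DNA. The methods name the broad option, whereas the deposited layout is that of narrow peaks with summits. The deposited fold enrichment is a ratio to the control background, and the p-values and q-values were deposited on the −log10 scale. Sequence and known transcripts (45756) came from RefSeq for GRCm38, whose chromosome lengths held all peaks. The exact palindrome was searched with Python 3.11.15 within 100 bp of each summit. Soft-masked bases were taken as repeats. Intervals are 95% Wilson intervals of shares and order-statistic intervals of medians, for counting error only. The scan was tested on simulated sequence with planted motifs. Without replicates no test was run, and samples form 1 group. Read depth is unknown, and it bears on which copies lie in a peak. The members and gene lists were chosen with earlier results of these data known. Named genes were the 20 promoter and 10 other peaks of highest fold enrichment, the 5 lowest, all with 2 exact copies, those in listed genes, the 3 highest of each place outside promoters, and the 10 promoter copies without a peak nearest a start, with ties kept; 1 gene that this rule names is not reported here. Alternatives changed the window, the q-value and fold limits, the promoter limits and the annotation.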

Additional observations from a re-analysis of the deposited data

How the results depend on the processing

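Of 42 alternative values for 8 results, 35 stayed within the interval of the reported value (counts within 1.5 times), 7 moved and 0 reversed. The log2 difference in median fold enrichment between palindrome peaks and peaks without a match was 0.79 as reported, 0.68 with q of at most 1e-05, 0.67 with a fold enrichment of at least 5 and 0.67 with a window of 50 bp. The promoter share was 81.7% as reported, 89.4% with promoters of 2000 bp before to 500 bp after a start and 86.8% with 500 bp either side. The median distance of the copy was 15.5 bp from the summit and 28.5 bp from the midpoint of the peak. The share of promoter copies in a peak was 84.8%, and 80.3% lay within 100 bp of a summit. The shares of the single-mismatch forms at a CpG ratio of at least 0.8 and outside repeats were added after the data were seen, and their changes stand beside the values in the report. No paired analysis was possible because the single list comes from no test between groups, and no replicate could be left out.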
